A study of Mus musculus with 33 samples.

Results

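Genes that mark or control marginal zone and follicular B cells were followed in mouse lymphoid organs during nicotinamide treatment. The 9 members are Cr2, Cd1d1, S1pr3, Dtx1, Myof, Fcrl5, Notch2, Cd9 and Fcer2a. They were chosen by symbol, and all 9 had a row of their own among 56414 rows, of which 36109 had reads. All 9 passed the filter on low values under each label.

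Mice of the C57Bl/6 strain, free of tumours and given as the same strain in all groups, drank water with 0.5% nicotinamide (NAM, an amide of vitamin B3 that cells turn into NAD) over 1, 3 or 14 days, and control mice received none. Of 33 polyA RNA-seq libraries, 20 were labelled spleen, with 5 in each of the 4 groups. Another 13 were labelled lymph node, 4 each at 14 and 3 days, 2 at 1 day and 3 untreated. The labels give neither age, sex nor pooling, nor say whether replicates came from separate mice, so p-values measure the spread between these libraries, which may be technical.

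Most of the checked organ genes went against the tissue labels. Glycam1, a product of lymph node high endothelial venules, ranged from 112357 to 225148 normalised counts in the libraries labelled spleen and from 1.52 to 11.7 in those labelled lymph node, on a scale common to both. Nkx2-5, used here as a spleen stroma gene, was 0 in every library labelled spleen and 158 to 257 in those labelled lymph node. Spic, the regulator of red pulp macrophages, reached 1361 at most in libraries labelled spleen and was 5814 or more in all those labelled lymph node. Genes of marginal zone macrophages were mixed. Cd209b was 3646 to 9913 under the spleen label and 583 to 1549 under the lymph node label, Siglec1 was 831 to 2276 against 354 to 713, and Marco overlapped, while Cd5l was 124 to 620 against 4682 to 8016. Groups are therefore named by their labels only. Libraries labelled spleen held 18325061 to 31486631 reads untreated and 21848473 to 32066627 at 1 day. At 3 days they held 43632016 to 54830743, more than any untreated or 1 day library, and at 14 days 19880930 to 48338251. The part of this depth in the 3 day values was not tested. Libraries labelled lymph node held 30424968 to 46733974. One library, labelled lymph node at 1 day replicate 1, had a summed level of 106291 for 8 pancreas genes, and the other library of its group had 14.5.

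Mature B cells of the spleen divide into follicular cells, which recirculate through follicles, and marginal zone cells, which sit beside the marginal sinus and meet blood-borne antigen. Marginal zone cells carry high complement receptor 2 (Cr2) and CD1d (Cd1d1) and little of the low-affinity IgE receptor CD23 (Fcer2a), which is high on follicular cells. Their formation requires the receptor Notch2 on the B cell and its ligand Dll1 on stroma, and deltex 1 (Dtx1) is a Notch target. Cr2 is also made by follicular dendritic cells, and Cd1d1, Cd9, Notch2 and Myof are made by cells other than B cells. In these bulk samples, fewer cells of a type and less RNA per cell cannot be told apart.

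The 250 bases before the RefSeq start of the 2 genes that mark the 2 populations are shown because the ratio of Cr2 to Fcer2a is given below. Capitals mark the hexamer TGGGAA, the core of the site bound by RBPJ, the DNA-binding partner of Notch, searched on both strands. The Cr2 window lies at chr1:195176720-195176969 and the Fcer2a window at chr8:3694175-3694424, both on the minus strand of GRCm38.p6.
Cr2: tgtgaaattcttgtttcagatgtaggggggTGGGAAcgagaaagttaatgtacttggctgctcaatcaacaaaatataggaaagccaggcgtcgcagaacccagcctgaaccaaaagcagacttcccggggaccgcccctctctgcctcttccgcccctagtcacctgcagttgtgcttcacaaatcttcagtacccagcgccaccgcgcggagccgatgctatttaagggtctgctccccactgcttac
Fcer2a: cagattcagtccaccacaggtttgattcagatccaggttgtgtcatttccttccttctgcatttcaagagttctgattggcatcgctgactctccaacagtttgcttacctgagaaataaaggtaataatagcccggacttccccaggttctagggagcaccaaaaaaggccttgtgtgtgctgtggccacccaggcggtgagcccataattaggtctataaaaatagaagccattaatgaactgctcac
The Cr2 window holds the hexamer 220 bases before the start and the Fcer2a window shown holds none. Over 10 windows of 8 members, 4 windows of 3 members (Cr2, Cd9 and alternative starts of Fcer2a) held it, against 21.6% of 32851 windows of the same length. The windows of Dtx1, Notch2, Fcrl5, Myof and S1pr3 held none in these bases.

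In libraries labelled spleen, Dtx1 and Fcer2a were lower and Cd1d1 was higher after 1 day of NAM, and no other member passed the test. These 3 of 9 members (1 higher, 2 lower) stand against 16.6% of 18243 rows called over the whole table, 8.56% higher and 8.05% lower. The median change over the 9 members was -0.08 on the log2 scale, against 0.01 over all rows tested. A member was called when limma's test with Benjamini-Hochberg adjustment over all rows gave an adjusted p under 0.05, and fold changes are on the scale log2(normalised count + 1). Dtx1 alone had 1 day libraries that did not overlap the untreated ones, 1 of 9 members, against 11.9% of all rows. At 3 and 14 days 0 of 9 did so, against 5.06% and 0.548%.

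Dtx1, the Notch target (5:120680199-120711671 in mm10), encodes an E3 ubiquitin ligase. Its normalised counts under the spleen label were 3058, 2058, 3128, 2367 and 2158 in untreated libraries and 1524, 1199.7, 1725, 1368 and 1951 at 1 day. All 5 libraries at 1 day were below every untreated library. At 3 days they were 2062, 1419, 1529.9, 1842 and 1563, and at 14 days 2803, 1802, 2377, 1903 and 2586. At 3 days 4 of 5 libraries were below every untreated library, and at 14 days 3 of 5 lay within the untreated range and 2 below it. The mean was 2554 ± 505 in untreated libraries, 1554 ± 295 at 1 day, 1683 ± 263 at 3 days and 2294 ± 432 at 14 days (each ± SD, n = 5). The change was -0.72 ± 0.15 (log2, SE) at 1 day with an adjusted p of 0.00441 by limma, and it was called in all 23 alternative fits. At 3 days it was -0.59 ± 0.15 with an adjusted p of 0.0311, the only member called, against 5.55% of all rows and 2.74% called lower. That call was kept in 3 of 10 fits that left out 1 library (without untreated replicate 2 or 5 or 3 day replicate 1), with an adjusted p of up to 0.0948 in the other 7.

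The same gene did not follow this course under the lymph node label. Dtx1 was 2299.6, 2229 and 1947 in untreated libraries, 2677 and 2243 at 1 day, 2310.1, 1984, 2114 and 2569 at 3 days, and 2544, 2369, 1999 and 2129.7 at 14 days. All 3 treated groups overlapped the untreated group, and the change at 1 day was 0.19 ± 0.12 with an adjusted p of 0.496. The difference between labels in the change at 1 day was 0.92 ± 0.24 on the log2 scale with an adjusted p of 0.0482, the only 1 of 9 members past the threshold, against 1.46% of 18581 rows and 0.866% in this direction. It was kept in 4 of 15 fits that left out 1 library (without untreated replicate 2 or 5 or 1 day replicate 3 or 5, all labelled spleen), and without the library holding pancreas genes it was 0.79 with an adjusted p of 0.212. At 3 days the difference was 0.66 ± 0.22 with an adjusted p of 0.150, and 0 members were called there or at 14 days, against 0.63% and 0.124% of rows.

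Notch2, the receptor, had lower means at 1 and 3 days under both labels without passing the test. Under the spleen label it was 1164, 1456, 1207, 1435 and 1825 untreated, 1344, 1030.4, 1030.2, 1178 and 991 at 1 day, 1319, 1303, 896, 1064 and 1209 at 3 days, and 1228, 1346, 1216, 1402 and 1447 at 14 days. Of these, 3 of 5 libraries at 1 day and 2 of 5 at 3 days were below every untreated library. The values were -0.34 ± 0.12 at 1 day (adjusted p = 0.0646) and -0.29 ± 0.12 at 3 days (adjusted p = 0.173). At 1 day it passed in 4 of 13 other settings (DESeq2, quantile normalisation, library weights and the adipocyte score as a covariate, adjusted p of 0.0108 at the least) and without untreated replicate 1 or 3 or 1 day replicate 1, and at 3 days in 2 of 13. Among libraries labelled lymph node it was 957, 1017 and 990.1 untreated, 654 and 729 at 1 day, 730.3, 673, 693 and 952 at 3 days, and 894, 1003, 809 and 882 at 14 days. Every library at 1 and 3 days was below the untreated libraries. The values were -0.52 ± 0.13 at 1 day (adjusted p = 0.0616) and -0.39 ± 0.11 at 3 days (adjusted p = 0.0997). By DESeq2 on the recovered reads the 1 day change was past the threshold (adjusted p = 0.0105), and without replicate 4 of the 3 day group the 3 day change was -0.50 with an adjusted p of 0.00927. Without the library holding pancreas genes, the 1 day change was -0.44 with an adjusted p of 0.289 and 1 library left in the group. The difference between labels was -0.16 ± 0.20 at 1 day (adjusted p = 0.758).

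**Figure D1:**
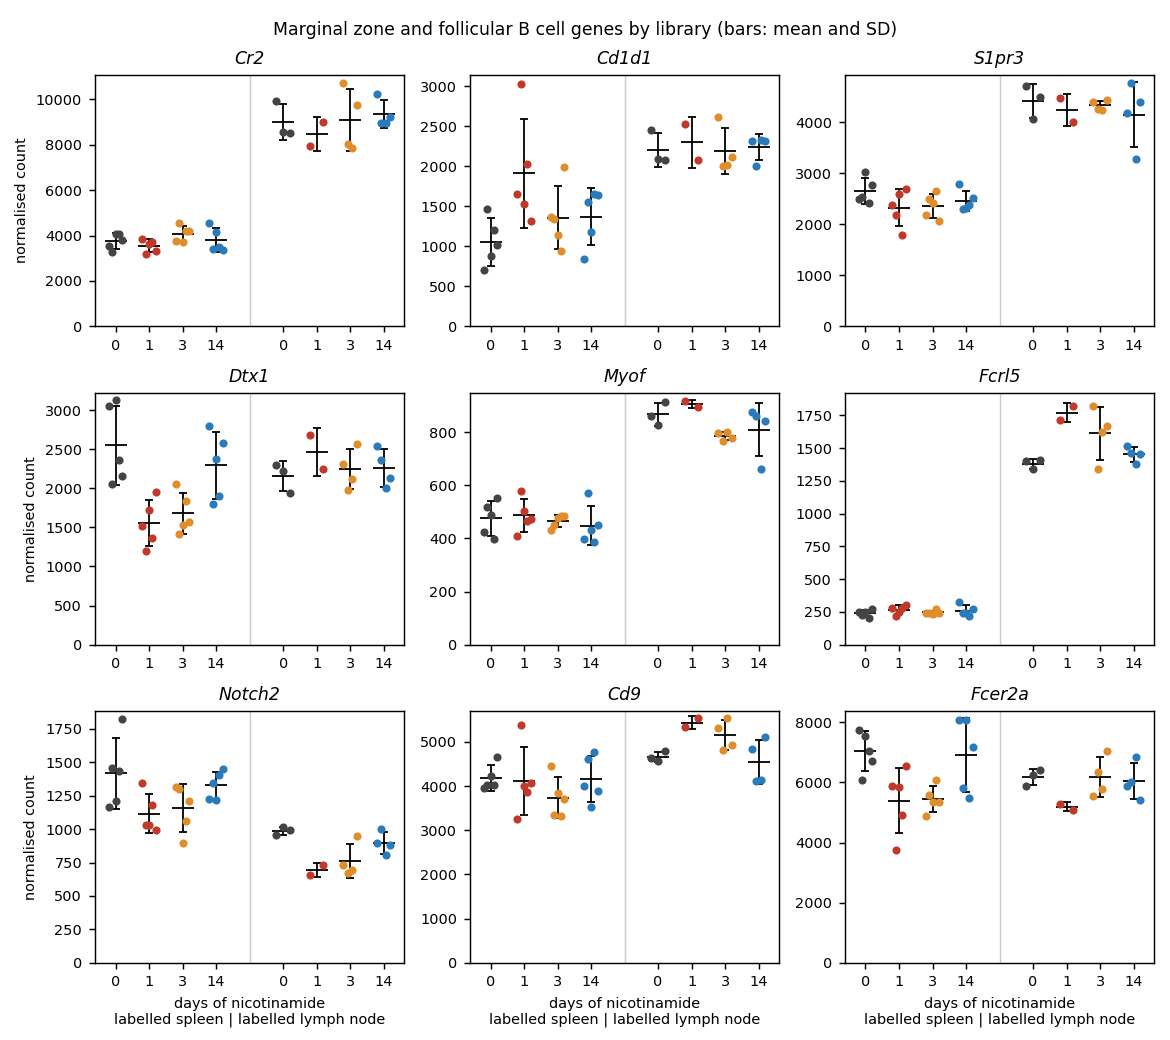
Normalised counts (vertical axes from 0) of the 9 members in each library against days of NAM (0 is untreated), with libraries labelled spleen left of the grey line and those labelled lymph node right of it, which the authors scaled separately, and horizontal marks and bars are the mean and SD. Dtx1 falls at 1 and 3 days on the left of its panel, with all 5 libraries at 1 day below the untreated ones, and shows no such fall on the right.

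Among 29 other genes of the Notch pathway, all tested, at 1 day 2 were higher and 3 lower in libraries labelled spleen, and the median change was -0.06 against 0.01 over all rows. These 5 of 29 are close to the 16.6% of all rows called. Nrarp, a feedback target of Notch, fell by 0.48 ± 0.08 on the log2 scale (adjusted p = 0.000922), from 587 to 692 normalised counts untreated to 415 to 500 at 1 day. The receptor Notch1 fell by 0.32 ± 0.10 and Dtx2, a relative of Dtx1, is the third (-0.25 ± 0.07). Jag1, a ligand, rose by 0.44 ± 0.14, and Aph1a, part of the γ-secretase complex that cleaves Notch, rose by 0.36 ± 0.12. The ligand Dll1 (-0.12 ± 0.11, adjusted p = 0.494), the DNA-binding partner Rbpj (0.02 ± 0.10, adjusted p = 0.935) and the target Hes1 (-0.14 ± 0.11, adjusted p = 0.413) did not pass. At 3 days 0 were higher and 1 was lower (Numb, an inhibitor of Notch, -0.32 ± 0.08), against 5.55% of rows, and at 14 days 0 of 29 were called, against 0%. With the lymph node label 0 of 29 were called at any duration, against 1.21%, 1.24% and 0.791% of rows. There Dtx2 was 0.31 ± 0.11 at 1 day (adjusted p = 0.183), and its change differed between labels by 0.58 ± 0.13 (adjusted p = 0.0253), the 1 called of the 29, against 1.46% of rows.

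Fcer2a, the follicular marker (8:3681737-3694177), had values under the spleen label of 7752, 6082, 7550.1, 7052 and 6720.4 untreated and 5884, 3756, 5855, 4932 and 6546 at 1 day. At 1 day 4 of 5 libraries were below every untreated library, and 1 lay within their range. At 3 days the values were 4884, 5579.5, 5343, 6091 and 5363, again with 4 of 5 below, and at 14 days they were 8079, 5824, 8083, 5466 and 7165, on both sides of the untreated range. The change was -0.40 ± 0.13 at 1 day (adjusted p = 0.0422) and -0.37 ± 0.13 at 3 days (adjusted p = 0.106). The 1 day call was held in 4 of 10 fits that left out 1 library (without untreated replicate 2 or 1 day replicate 1, 3 or 5), and without 1 day replicate 2, which had the lowest Fcer2a and the lowest B cell list score, it was -0.28 with an adjusted p of 0.113. It was also lost in 6 of 13 other settings, edgeR among them (adjusted p of up to 0.0914). In the other label's libraries Fcer2a was 5869.9, 6250.1 and 6400.1 untreated, 5292 and 5081 at 1 day, 5547, 6354, 5770.1 and 7052 at 3 days, and 5881, 5999, 6844 and 5426 at 14 days. Both 1 day libraries were below the untreated ones, but the change of -0.25 ± 0.10 did not pass (adjusted p = 0.249), and without the library holding pancreas genes it was -0.28 (adjusted p = 0.396).

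Some genes of 2 other B cell lists were called lower at 1 day under the spleen label and none higher, against 8.05% and 8.56% of all rows. Of 14 follicular B cell genes 0 were higher and 7 lower, with a median of -0.31, and of 12 pan-B cell genes 0 were higher and 5 lower, with a median of -0.29. Those that fell included Klf2, a regulator of lymphocyte trafficking that T cells also make (-0.95 ± 0.18), Foxo1 (-0.43 ± 0.09), the B lineage regulators Pax5 (-0.46 ± 0.12) and Ebf1 (-0.42 ± 0.11), and Spib (-0.43 ± 0.12). The summed level of the 12 pan-B genes was 77475 to 98478 untreated and 61669 to 87611 at 1 day, and none was at 0. T cell genes had a median of -0.15 with 0 higher and 2 lower of 11 (Bcl11b, -0.73 ± 0.17, and Tcf7, -0.63 ± 0.16), with a summed level of 56314 to 80971 untreated and 42809 to 78992 at 1 day. These 2 of 11 are close to the 16.6% of all rows called. Adipocyte genes had a median of 0.96. The part of T cell genes was not tested, and fits with the adipocyte score are given with Cd1d1. Scaled to the B cell list, which moves every member by the same amount, Fcer2a was lower at 1 day (-0.21, adjusted p = 0.0362), as was Dtx1 (-0.53, adjusted p = 0.00267). In that setting Cd1d1 and Fcrl5 (0.33, adjusted p = 0.0277) were called higher. Neither B cell list had a called gene (0 of 14 and 0 of 12) in libraries labelled lymph node at any duration, against 1.21%, 1.24% and 0.791% of rows.

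Over the 20 libraries labelled spleen, Fcer2a followed the B cell list (mean log2 level of its 12 genes) with Pearson's r of 0.95 and Spearman's rho of 0.92 (permutation p = 1e-05 for both, the smallest that 100000 permutations give, and adjusted p = 9e-05 over 18 relations, 9 members with 2 lists). With the 2 most distant libraries on the list axis left out r was 0.90, and between deviations from group means it was 0.94. Dtx1 followed it with r of 0.82 and rho of 0.76 (permutation p = 2e-05 and 0.00012; adjusted p for r = 0.00012), and r was 0.76 without the 2 farthest libraries. Both genes ran against the adipocyte list, with r of -0.77 for Fcer2a (rho -0.72, permutation p = 0.00013, adjusted p = 0.000585, r of -0.65 without the 2 farthest libraries) and -0.67 for Dtx1 (rho -0.53, permutation p = 0.00128, adjusted p = 0.00384, r of -0.47 likewise). The libraries fell to 2 sides of the second principal component of all rows, with 9 on one side (all 5 at 1 day and 4 of 5 at 3 days) and 11 on the other (untreated, 14 days and 3 days replicate 1). On these sides r with the B cell list was 0.92 and 0.94 for Fcer2a and 0.82 and 0.82 for Dtx1, and with the adipocyte list -0.85 and -0.76 for Fcer2a and -0.80 and -0.83 for Dtx1. The labels name no batch, so duration and any batch behind this division cannot be told apart. No other list was related to the members, and the adjustment over 18 relations does not cover the choice of these 2 lists. Nor were the lists separate measures. The library with the highest adipocyte score (14.0, 1 day replicate 2) had the lowest B cell score (11.9). That with the lowest adipocyte score (10.1, untreated replicate 1) had a B cell score of 12.4.

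Cr2 (1:195136811-195176715) did not pass the test at any duration. Its values under the spleen label were 3546, 3274, 4053, 4069 and 3809.7 untreated, 3866, 3171, 3650.4, 3697 and 3322 at 1 day, 3749, 4547, 3708, 4216 and 4204 at 3 days, and 4536, 3395, 4157, 3477 and 3385 at 14 days. Every treated group overlapped the untreated one. The values were -0.08 ± 0.09 at 1 day (adjusted p = 0.576), 0.12 ± 0.09 at 3 days (adjusted p = 0.460) and 0.01 ± 0.09 at 14 days (adjusted p = 1). Those labelled lymph node held 9916, 8559 and 8516 untreated, 7936 and 9011 at 1 day, 10716, 8024, 7877 and 9738 at 3 days, and 10254, 8943, 8977 and 9237 at 14 days. The change was between -0.09 and 0.06 at the 3 durations, and the groups overlapped. Of 9 genes of follicular dendritic cells, which also make Cr2, 1 was higher and 2 lower at 1 day under the spleen label. Over all rows 8.56% were called higher and 8.05% lower. The adhesion molecule Vcam1 rose by 0.64 ± 0.11, the chemokine Cxcl13 fell by 0.62 ± 0.17 and Madcam1 fell by 0.69 ± 0.19 on the log2 scale. With the lymph node label 0 of 9 were called at any duration, against 1.21%, 1.24% and 0.791% of rows at 1, 3 and 14 days.

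The ratio of Cr2 to Fcer2a was formed in each library, and since other cells also make Cr2 it is no measure of marginal zone over follicular cells. Untreated libraries had 0.457 to 0.577, those at 1 day 0.507 to 0.844, those at 3 days 0.692 to 0.815, and those at 14 days 0.472 to 0.636. The 3 day libraries did not overlap the untreated ones, while those at 1 and 14 days did. In the 13 libraries labelled lymph node it lay between 1.26 and 1.93, and all groups overlapped. The ratio was formed from 2 members after their values were known and is given without a test.

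**Figure D2:**
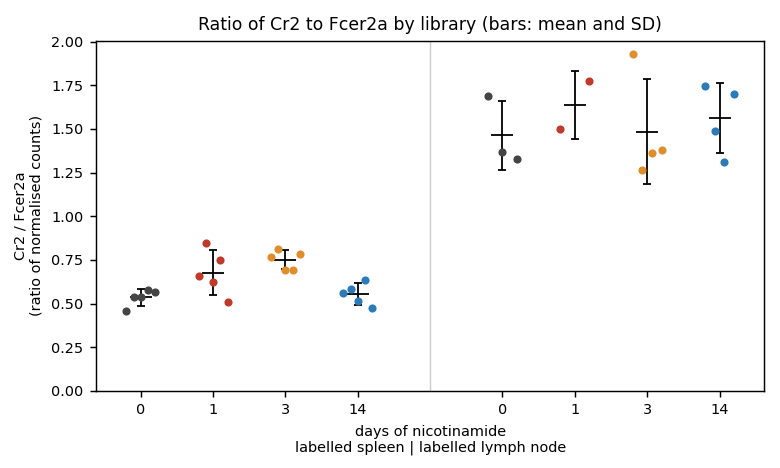
Ratio of Cr2 to Fcer2a normalised counts (vertical axis from 0) in each library against days of NAM (0 is untreated), with the spleen label left of the grey line and the lymph node label right of it, where marks and bars are the mean and SD. The 5 libraries at 3 days on the left, 0.692 to 0.815, lie above the 5 untreated ones, 0.457 to 0.577.

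Cd1d1 (3:86995834-86999342), which presents lipids to NKT cells, was the member that rose. Libraries labelled spleen held 699.5, 1471, 879, 1207 and 1013 untreated and 1654, 3027, 1524, 2029 and 1317 at 1 day. At 1 day 4 of 5 libraries were above every untreated one. It was 1366, 1338, 1142, 939 and 1985 at 3 days and 839.7, 1552, 1176, 1650.0 and 1634 at 14 days, and both groups overlapped the untreated libraries. The change at 1 day was 0.84 ± 0.24 (adjusted p = 0.0233), 0.36 ± 0.24 at 3 days (adjusted p = 0.414) and 0.38 ± 0.24 at 14 days (adjusted p = 1). It lost the call without untreated replicate 1 (0.70, adjusted p = 0.0675), 1 day replicate 2 (0.66, adjusted p = 0.0653) or 1 day replicate 4 (0.80, adjusted p = 0.0521), and with library weights (0.56, adjusted p = 0.0867). The lymph node label had 2453, 2085 and 2081 in untreated libraries, 2525 and 2076 at 1 day, between 2006 and 2615 in the 4 libraries at 3 days, and 2311, 1996, 2328 and 2312 at 14 days, with groups that overlapped and changes of 0.06, -0.02 and 0.02. The difference between labels at 1 day was -0.76 ± 0.36 (adjusted p = 0.287).

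Adipocyte genes moved with Cd1d1 under the spleen label. The summed level of 8 adipocyte genes was 19687 to 122939 untreated and 62432 to 264314 at 1 day, and none was at 0, while under the lymph node label it was at most 206. Their median change at 1 day was 0.96, and 1 of 8 was called (Retn, 1.61 ± 0.52), against 16.6% of all rows. Over the 20 libraries Cd1d1 followed the list with Pearson's r of 0.92 and Spearman's rho of 0.88 (permutation p = 1e-05 for both, the smallest possible, and adjusted p = 9e-05 over the 18 relations). Without the 2 farthest libraries r was 0.85, between deviations from group means it was 0.93, and on the 2 sides of the second component it was 0.95 and 0.93. The B cell score was lowest in the library where the adipocyte score was highest, so relations with the 2 lists are not separate results. Cd1d1 ran against the B cell list, with r of -0.73 and rho of -0.63 (permutation p = 0.00032 and 0.00369, adjusted p for r = 0.00115). Without the 2 farthest libraries r was -0.52, and on the 2 sides it was -0.70 and -0.62. Of the other members, S1pr3 alone passed, with r of -0.61 for the adipocyte list (rho -0.72, permutation p = 0.00499, adjusted p = 0.0128, r of -0.68 without the 2 farthest libraries, -0.72 and -0.47 on the sides) and 0.58 for the B cell list (rho 0.61, permutation p = 0.0082, adjusted p = 0.0184, r of 0.53 without them, 0.56 and 0.49 on the sides). With the list's score as a covariate, chosen after seeing the data, the 1 day change of Cd1d1 was 0.42 (adjusted p = 0.00709), that of Dtx1 was -0.51 (adjusted p = 0.00484), that of Fcer2a was -0.20 (adjusted p = 0.0914) and that of Notch2 was -0.44 (adjusted p = 0.0108). Cd1d2, the neighbouring copy of Cd1d1, shared 96.5% of 1236 aligned transcript bases with it, so reads can be shared, but its row held only 4.38 to 61.8 normalised counts in any library.

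**Figure D3:**
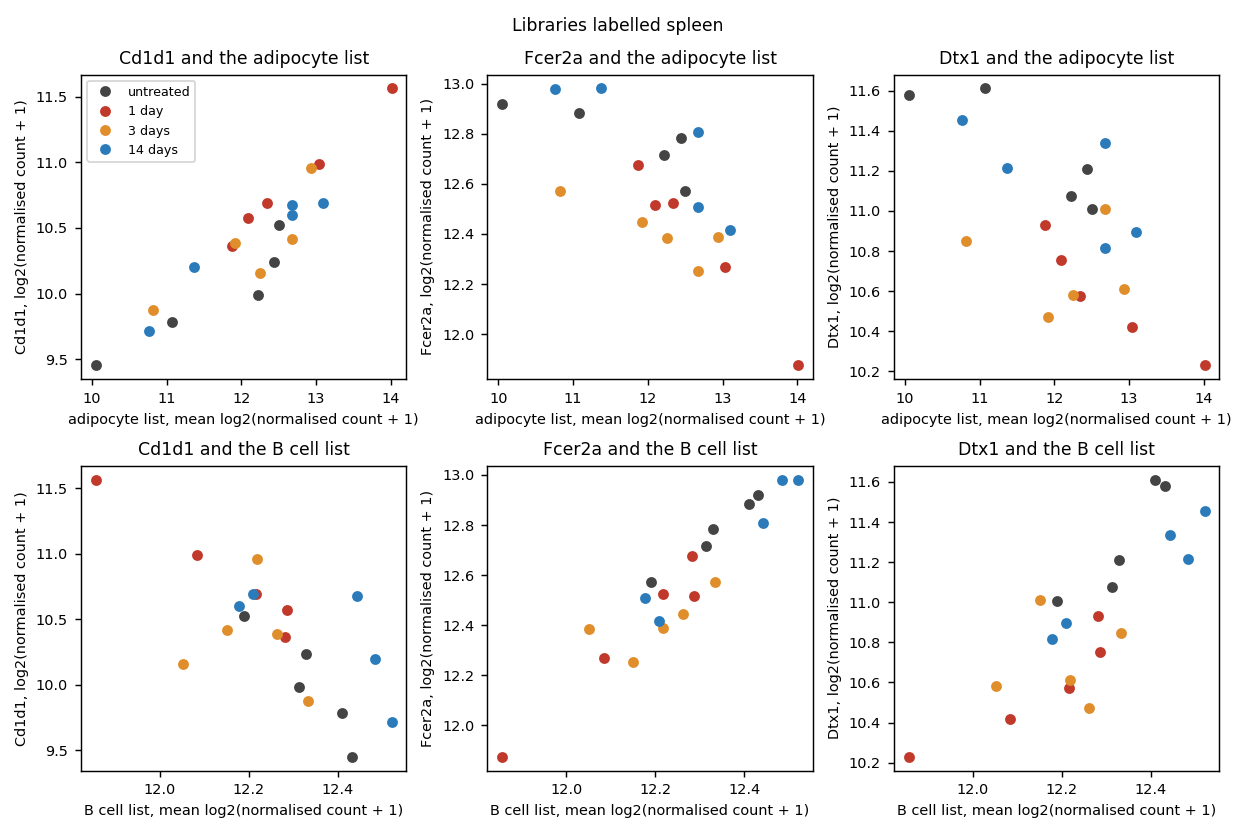
Levels of Cd1d1, Fcer2a and Dtx1 against the adipocyte list (upper panels) and the B cell list (lower panels), each axis in log2(normalised count + 1) and each point 1 of the 20 libraries labelled spleen, coloured by duration. Cd1d1 climbs with the adipocyte list (r of 0.92) and descends with the B cell list (-0.73), and Fcer2a (-0.77 and 0.95) and Dtx1 (-0.67 and 0.82) do the opposite.

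S1pr3, a sphingosine-1-phosphate receptor that helps hold B cells in the marginal zone, did not pass in any comparison of durations. Its values under the spleen label were 2504, 2545, 3031, 2413 and 2778 untreated, 2391, 2175, 2600.0, 1792 and 2703 at 1 day, 2179, 2491, 2419, 2655 and 2072 at 3 days, and 2785, 2301, 2321, 2384 and 2517 at 14 days. Here 3 of 5 libraries at 1 day were below every untreated one, and the groups overlapped. The 1 day value was -0.20 ± 0.10 (adjusted p = 0.189). For the lymph node label the mean ± SD was 4428 ± 332 in untreated libraries (n = 3), 4245 ± 323 at 1 day (n = 2), 4337 ± 91.5 at 3 days (n = 4) and 4155 ± 635 at 14 days (n = 4), and the groups overlapped.

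Of 10 other genes of marginal zone residence, 1 was higher and 1 lower at 1 day under the spleen label, 2 of 10 where 16.6% of all rows were called. Cd36, a fatty acid receptor that adipocytes also make, rose by 1.40 ± 0.46 (adjusted p = 0.0415), from 1785 to 8011 normalised counts untreated to 6764 to 27176, and Asb2 fell by 0.31 ± 0.10 (adjusted p = 0.0393). At 3 days Asb2 was the 1 called (-0.51 ± 0.10), against 5.55% of rows. Of the 10, 0 were called with the lymph node label at any duration, against 1.21%, 1.24% and 0.791% of rows at 1, 3 and 14 days.

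Fcrl5, an Fc receptor-like protein found on marginal zone B cells, and Cd9, a tetraspanin of marginal zone and plasma cells, were higher early under the lymph node label without passing the test. Fcrl5 was 1399, 1338 and 1409 untreated, 1717 and 1819.6 at 1 day, 1823, 1338, 1627 and 1666 at 3 days, and 1514, 1459, 1380.3 and 1453 at 14 days. Both 1 day libraries were above the untreated ones, and the values were 0.36 ± 0.10 at 1 day (adjusted p = 0.107) and 0.21 ± 0.09 at 3 days (adjusted p = 0.251). Cd9 was 4646, 4567 and 4785 untreated, 5335 and 5542 at 1 day, 5325, 4822, 5539.8 and 4941 at 3 days, and 4847, 4127, 4141 and 5104 at 14 days. All libraries at 1 and 3 days were above the untreated ones, with values of 0.22 ± 0.09 (adjusted p = 0.267) and 0.14 ± 0.08 (adjusted p = 0.407). Without the library holding pancreas genes the 1 day values were 0.40 for Fcrl5 (adjusted p = 0.226) and 0.25 for Cd9 (adjusted p = 0.398). Of 7 plasma cell genes 0 were called there at 1 day, with a median of 0.37 and a summed level of 68932 to 71670 untreated and 93184 to 152284 at 1 day. Ccl21a, a chemokine of lymphoid stroma, was the 1 of 3 tested genes of the venule and stroma list called at 1 day (0.90 ± 0.17, adjusted p = 0.0126), against 1.21% of rows. The list's summed level was 6292 to 8482 untreated and 12929 to 14556 at 1 day. Glycam1, of the same list, was at most 11.7 under this label on the common scale. Of 7 tested erythroid genes 0 were called at 1 day and 6 were lower at 3 days (median -3.18), where 1.24% of rows were called. The summed level was 639019 to 1357630 untreated and 132204 to 606034 at 3 days. The part of these lists in the values of Fcrl5, Cd9 and Notch2 was not tested.

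Neither gene passed the test in libraries labelled spleen, though Fcrl5 passed at 1 day when scaled to the B cell list. The mean of Fcrl5 was 239.8 ± 27.6 in untreated libraries, 266 ± 34.2 at 1 day, 247 ± 12.4 at 3 days and 258 ± 41.7 at 14 days (each ± SD, n = 5). That of Cd9 was 4182 ± 289, 4118 ± 776, 3733 ± 463 and 4157 ± 519 in the same order. All these groups overlapped, with 1 day values of 0.14 ± 0.11 (adjusted p = 0.413) and -0.04 ± 0.11 (adjusted p = 0.846). For Cd9, 4 of 5 libraries at 3 days were below every untreated one (-0.17 ± 0.11, adjusted p = 0.405).

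Myof, a ferlin of membrane repair, ranged from 385 to 580.2 over the 20 libraries labelled spleen, and the groups overlapped. Libraries labelled lymph node held 862, 827 and 914 untreated, 917 and 895 at 1 day, 798, 768, 801 and 780.1 at 3 days, and 877, 861, 659.8 and 842 at 14 days. All 4 libraries at 3 days were below the untreated ones, with a change of -0.14 ± 0.09 that did not pass (adjusted p = 0.493).

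Under the lymph node label 0 of 9 members were called by limma at 1 day (4 at an unadjusted p under 0.05), 3 days (2) and 14 days (0), against 1.21%, 1.24% and 0.791% of 18215 rows called and 2726, 2694 and 2157 of them at an unadjusted p under 0.05. DESeq2 called 2 members at 1 day (Notch2 and Fcrl5), 1 at 3 days and 0 at 14 days, against 2.99%, 2.79% and 2.10% of rows by the same tool, and edgeR called 0 at each of them. Groups that did not overlap were found for 4 of 9 members at 1 day (Fcrl5, Cd9, Notch2 and Fcer2a), against 32.6% of rows, and for 3 of 9 at 3 days (Myof, Notch2 and Cd9), against 15.3%. At 14 days 0 of 9 did so, against 11.5%.

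**Figure D4:**
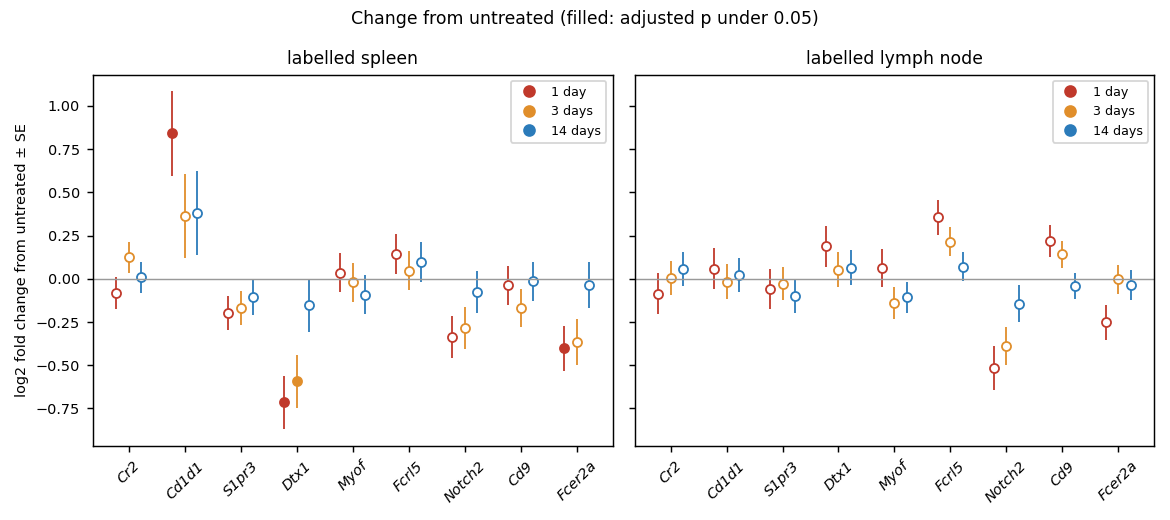
Fitted change from untreated in log2 units (points) with its SE (bars) for the 9 members at 1, 3 and 14 days under each label, where filled points have an adjusted p under 0.05. The filled points are Cd1d1, Dtx1 and Fcer2a at 1 day and Dtx1 at 3 days under the spleen label, with none under the lymph node label.

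At 14 days no member passed the test against untreated under the spleen label, where limma called 0 of 9 members and 0% of 18243 rows (0 members and 510 rows at an unadjusted p under 0.05), and edgeR and DESeq2 called 0 members. Of 5 libraries, 3 were above every untreated one for Cd1d1 and 3 were below every untreated one for S1pr3. Against 1 day, Dtx1 was higher at 14 days by 0.56 ± 0.15 (adjusted p = 0.0249), the 1 member called, against 10.6% of rows and 5.22% called higher. This was kept in 5 of 10 fits that left out 1 library, and lost without 14 day replicate 1, 3 or 5 or 1 day replicate 2 or 4 (adjusted p of up to 0.0713). Fcer2a was 0.37 ± 0.13 higher without passing (adjusted p = 0.0806). Of the Notch genes Nrarp rose by 0.60 ± 0.08 and Dtx2 by 0.28 ± 0.07 (2 of 29, both higher), and of the follicular genes 5 of 14 rose, Klf2 among them (0.89 ± 0.18). These contrasts share the 1 day libraries with the 1 day comparison. Under the lymph node label 0 of 9 members were called between 14 and 3 days (2 at an unadjusted p under 0.05, and 0 by edgeR and by DESeq2), against 0.011% of rows called and 5.84% at an unadjusted p under 0.05.

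Between the labels, untreated libraries differed in 8 of 9 members (5 higher and 3 lower under the lymph node label), against 62.8% of 18165 rows, 30.7% higher and 32.1% lower. On the common scale Fcrl5 was 1269 to 1337 under the lymph node label and 209.8 to 284 under the spleen label, a difference of 2.39 ± 0.11 on the log2 scale (adjusted p = 5.15e-08). Cr2 was 8079 to 9456 against 3442 to 4260.1 (1.13 ± 0.09). Cd1d1 was 1974 to 2339 against 739 to 1546 (0.97 ± 0.20), Myof 785 to 867 against 413 to 577 (0.74 ± 0.12) and S1pr3 3856 to 4494 against 2515 to 3186 (0.60 ± 0.09). These 5 did not overlap between the labels. Notch2 was lower, 913 to 965 against 1229.7 to 1903 (-0.64 ± 0.13), as were Fcer2a, 5598 to 6071 against 6394 to 8193 (-0.32 ± 0.08), and Dtx1, 1847 to 2193 against 2164 to 3287 (-0.36 ± 0.14, adjusted p = 0.047). Of the 9 members 7 did not overlap, against 60.6% of rows. Dtx1 overlapped, and its call was kept in 2 of 8 fits that left out 1 library, those without replicate 2 or 5 labelled spleen (adjusted p of up to 0.176 in the others). Cd9 did not pass (0.02 ± 0.07, adjusted p = 0.785).

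B cell genes in general were higher under the lymph node label, 9 of 12 against 2 lower, with a median difference of 0.60. For this and the lists below, 30.7% of all rows were called higher and 32.1% lower. Scaling to the B cell list lowered every member's difference by the same amount (a shift of -0.62), and the calls went from 5 higher and 3 lower to 2 higher (Cr2 and Fcrl5) and 4 lower. S1pr3 (-0.022, adjusted p = 0.842), Myof (0.11, adjusted p = 0.495) and Cd1d1 (0.35, adjusted p = 0.213) were then not called, and Cd9 (-0.60, adjusted p = 7.65e-05) was called lower. Of the 29 Notch genes 4 were higher, among them the ligand Dll1 (1.59 ± 0.10) and the target Hes5 (2.57 ± 0.22), and 22 lower, among them the repressor Spen (-2.76 ± 0.12), Notch1 (-2.27 ± 0.10) and the ligand Jag2 (-2.04 ± 0.20). Other cell types differed too, with 10 of 11 T cell genes, 8 of 10 blood endothelial genes (median -1.19) and 8 of 8 adipocyte genes lower, and 7 of 7 erythroid genes tested (median 8.34) and 8 of 9 platelet genes (median 3.92) higher. Summed levels in untreated libraries, on the deposited scale of each label, were 34454 to 36851 against 56314 to 80971 for T cell genes and 13776 to 14081 against 1702 to 2173 for platelet genes, and their part in the members' differences was not tested. Over all durations Cr2, Myof and Fcrl5 were higher in each of 13 libraries labelled lymph node than in any of 20 labelled spleen, 3 of 9 members, against 13.5% of rows.

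**Figure D5:**
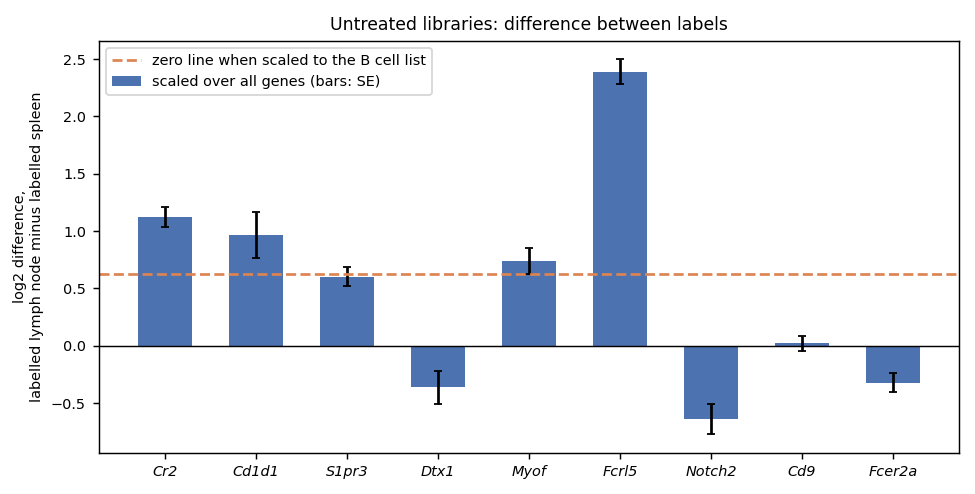
Difference between untreated libraries labelled lymph node and those labelled spleen in log2 units for each member (bars, with SE), scaled over all genes, and the line that would be 0 if they were scaled to 12 B cell genes (dashed). Fcrl5 (2.39) is the highest bar and Notch2 (-0.64) the lowest.

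The members also differed in how widely they varied. Over the 20 libraries labelled spleen the coefficient of variation was 36.8% for Cd1d1, 27.4% for Dtx1, 18.7% for Fcer2a and 16.7% for Notch2, and 10.7% to 13.1% for the other members. Over the 13 labelled lymph node it was 8.54% to 11.5% for the members other than Notch2, whose highest library was 1.55 times its lowest. The genes whose levels ran most like Fcer2a over the 20 libraries were Il16 (r = 0.95) and Mina (0.95), given as a description, and over the 13 they were Gga2 (0.90), Parp3 (0.88) and Srpk3 (0.88). For Cr2 they were Zfp955b (0.84), Gm8369 (0.79) and C920009B18Rik (0.78), and Trim23 (0.88), Mbnl1 (0.86) and Tgs1 (0.85).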

How the data were processed

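The authors deposited 1 table of normalised counts, a signal in which each library's reads are divided by a DESeq2 size factor, with mm10 coordinates. Per the labels' processing notes STAR 2.4.0, FastQC, Picard, SAMtools and DESeq2 were used. For its other RNA-seq sets the study counted reads on gene parts free of alternative splicing. The counter of this table and any strand setting are not given in the sources used here, so Cd9, Notch2 and S1pr3, whose exons share 218, 541 and 45 bases with other annotated genes, may hold their reads.

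Whole reads were recovered from the steps of the values (100.0% whole in the lowest library, within 0.1 of a read). The authors scaled the labels separately, so values set across labels used size factors recomputed over all 33 libraries, and the test between untreated libraries used those of these 8 alone. Rows with a mean of at least 10 were tested with limma 3.58.1 (R 4.3.3) on log2(value + 1), in 1 trended fit per label that held its 4 groups, and Benjamini-Hochberg adjustment at 0.05. edgeR 4.0.16 and DESeq2 1.42.0 on the reads were alternatives. Scripts were tested on simulated data. No 2 replicates were identical. Groups came from sample titles. The members are always named, and of every other list the called genes are counted and up to 4 with the largest change named (all where at most 5 were called). The genes most like Cr2 and Fcer2a are the 3 named rows with the highest r, members left out, and 1 of them is not reported here. Dll1 between labels, and other genes named as not called or for 3 and 14 days, were chosen after their values were seen. Members and lists were chosen with earlier results of these data known.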

Additional observations from a re-analysis of the deposited data

Results flagged for a closer look

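The change of Dtx1 at 1 day differed between the labels by 0.92 on the log2 scale, by limma's test of the difference itself (adjusted p = 0.0482). That call was kept in 4 of 15 fits that left out 1 library, and lost with no filter and by edgeR. In 54 sets of 4 or 5 libraries, 3 held a library far from the others, and chance gives about 1 in 20. Under the lymph node label at 14 days, Cd1d1 was 1996 in replicate 2 against 2311 to 2328 in the others, and Myof was 659.8 in replicate 3 against 842 to 877. Under the spleen label at 3 days, Fcrl5 was 268 in replicate 4 against 236 to 245.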

How the results depend on the processing

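The number of members called at 1 day under the spleen label (3) was 1 to 4 without single libraries. In 13 other settings Dtx1 was called in 13, Cd1d1 in 12, Fcer2a in 7, Notch2 in 4 and Fcrl5 in 1, and the study's rule called 2, without Fcer2a. The study stated that rule, on p (0.05) and fold (1.5), for other RNA-seq sets, and p was taken here as unadjusted. At 3 days (1) the number was 0 with no filter or only the 2 groups compared, 3 with library weights or the adipocyte score as a covariate, and 0 to 1 without single libraries. For 14 days against 1 day (1) it was 0 by the study's rule, 2 with quantile normalisation or the adipocyte covariate, and 0 to 2 without single libraries. Under the lymph node label, 1 member was called at 1 day in the fit of the 2 groups alone and 2 by DESeq2. At 3 days 1 was called with library weights and by DESeq2, and 0 to 1 without single libraries. For the difference between labels at 1 day (1), 0 were called with no filter and by edgeR, and 0 to 1 without single libraries. At 3 days (0), 2 were called with library weights and 0 to 1 without single libraries. Between untreated libraries the count (8) was 6 to 8 under all alternatives, and scaling to the B cell list, which shifts every member by -0.62, turned S1pr3 (-0.022) and Cd9 (-0.60) and left 2 higher and 4 lower calls in place of 5 and 3. With values scaled as deposited, separately for each label, 6 members were called between untreated libraries, 5 higher and 1 lower. Fcer2a (-0.18, adjusted p = 0.0769) and Dtx1 were then not called. For alternatives other than the B cell list the cause was not tested. With the replicate number as a block the counts were 3, 1, 0 and 1 under the spleen label, 0 throughout under the lymph node label, 8 between untreated libraries and 1, 0 and 0 for differences between labels, the same as without it. Same-numbered libraries labelled spleen correlated over 0.1 in 12 of 15 pairs among untreated, 1 day and 14 days (-0.32 to 0.47) and in 1 of 15 with 3 days, and those labelled lymph node in 0 of 16. Since not every pair did so and no label says what a number marks, the numbers were not taken to pair libraries. Where a group was left with 1 library, it was assumed to vary like the other groups.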
